A study of Mus musculus with 4 samples.

Results

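The cells described here are those that the study's annotation labels Innate-like T#1, the larger of its 2 innate-like T cell groups. The number is that of the deposited annotation and may not match the numbers given to these groups in print. They were chosen by that label alone, which the authors made from the RNA of the same nuclei, and number 3239 of the 15621 labelled cells (20.7%) in 17 labels. The cells came from mice that carried AKP tumors, grown from organoids with loss of Apc and Trp53 and an activated oncogene, which had been implanted into the wall of the cecum. T cells were purified from the tumors and from the neighbouring cecum without tumor 4 weeks later, and each nucleus was read for RNA and for open chromatin by transposase cutting (ATAC). Open chromatin of 1 cecum library and 1 tumor library was analysed, so tissue and library cannot be told apart, no difference has a replicate check and no p-value is given. The strain, age and number of the mice behind these 2 libraries are not given in the sources used here, and all cells of both groups came from tumor-bearing mice.

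Innate-like T cells of the gut carry an antigen receptor but share features with natural killer cells, such as signalling adaptors and a readiness for cytotoxicity. Fcer1g, one of their markers, encodes the gamma chain of Fc receptors, an adaptor with an activation motif that also serves natural killer receptors. Bcl6, the other marker, is a transcriptional repressor that takes part in follicular helper and memory T cell programs. Many such cells arise from thymocytes that met self-ligand, and they live in or near the epithelium.

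The label was the most frequent one in both libraries. It held 1398 of 7155 cecum cells (19.5%, 95% interval 18.6 to 20.5) and 1841 of 8466 tumor cells (21.7%, 20.9 to 22.6). The other innate-like group, Innate-like T#2, held 165 and 437 cells, CD8aa (T cells with the CD8 alpha homodimer) 407 and 473, Cytotoxic gdT (gamma-delta T cells) 523 and 595, and Rorgt gdT 438 and 273. Shares and levels here carry exact intervals that cover counting error only, and the shares also depend on how the tissue was sorted. Among labels without a CD4 or Treg name the shares were 25.3% and 30.5%, and among those without a CD4, Treg, Th or Tfh name, a denominator chosen after the values had been seen, 34.2% and 34.1%. Per cell of Innate-like T#1 the median depth was 3516 fragments (cecum) and 5243 (tumor). The label summed to 8067212 and 12494761 fragments, against 1060823 and 3015432 for Innate-like T#2. Innate-like T#2 had the fewest fragments of the 5 labels in the cecum and Rorgt gdT in the tumor (2125652), so ratios over these were the least precise. Over all labels, 84 labelled barcodes occurred in both libraries, 2 of them in Innate-like T#1.

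Levels are given as FPM, the fragments with an end in a window per 1000000 fragments of that label in that library. Where 2 values are joined by and, the first is from the cecum and the second from the tumor library. The window of a gene is its RefSeq span with 5000 bases on both sides. A level in FPM sums over the cells of a label, so more cells with an open site and more fragments per cell cannot be told apart. It also grows with gene length, so levels are compared between labels and not between genes.

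Of the markers given for the label, Bcl6 ranked 1 and Fcer1g ranked 2 among the labels in both libraries. Bcl6 (chr16:23965050-23988866) stood at 186 FPM (177 to 196) and 179 FPM (172 to 187), the highest level of the 16 labels with at least 50 cells in the cecum and of the 17 in the tumor. The lead was small, since the next label, Cytotoxic CD8, had 166 and 168 FPM, Innate-like T#2 154 and 140 FPM and CD8aa 165 and 137 FPM. Fcer1g (chr1:171229572-171234349) stood at 34.7 and 37.1 FPM, the second highest level in both libraries. The highest was CD8aa at 38.1 and 41.6 FPM, Innate-like T#2 had 32.1 and 31.5 FPM, and Rorgt gdT only 6.94 and 10.8 FPM. The Fcer1g window also reaches neighbouring genes such as Apoa2, whose fragments cannot be separated from it. Among markers of other T cells, Cd4 ranked 14 in both libraries at 36.8 and 36.7 FPM, Cd8a ranked 6 at 32.5 and 45.6 FPM, and Foxp3, the factor of regulatory T cells, ranked 16 and 15 at 21.7 and 19.6 FPM.

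**Figure D1:**
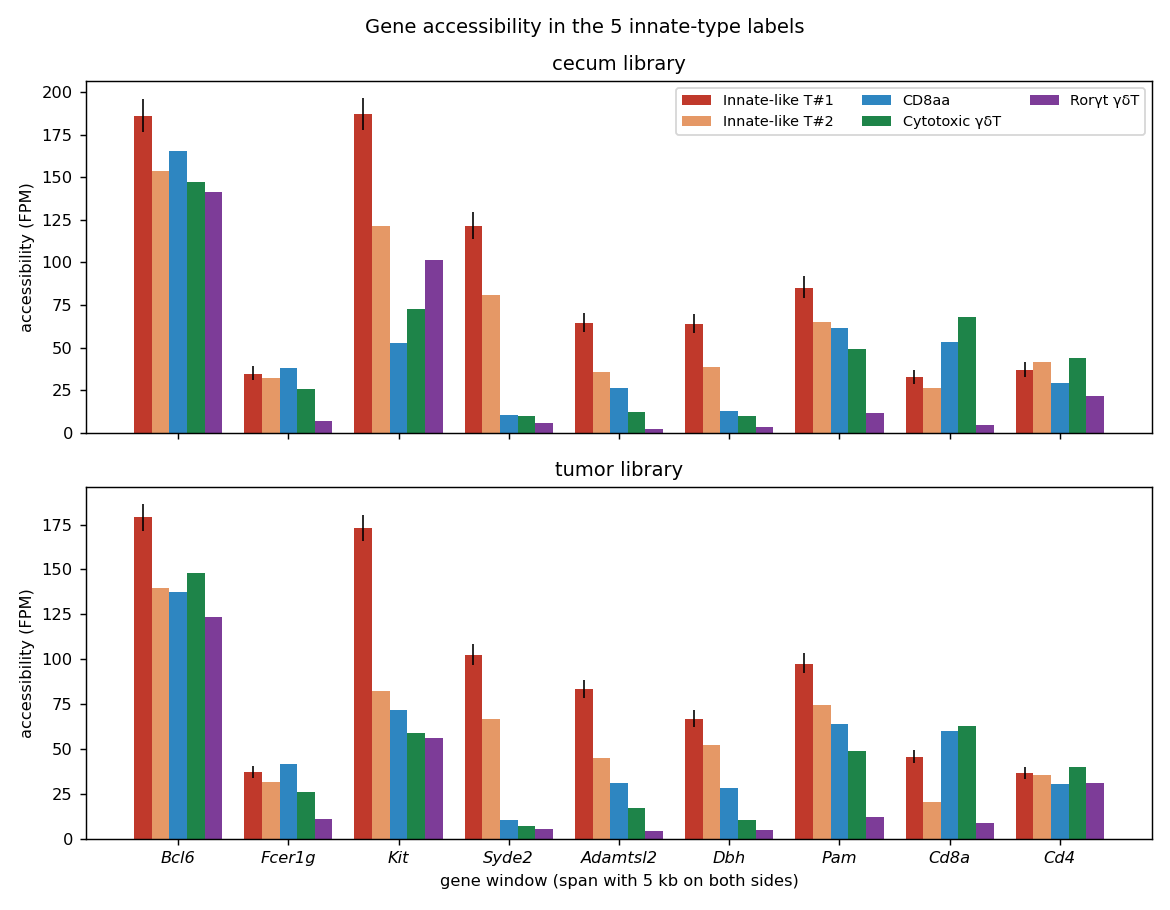
Accessibility in FPM of 9 gene windows in the 5 innate-type labels, cecum library above and tumor library below, with 95% counting intervals on the Innate-like T#1 bars. Innate-like T#1 stands highest of the 5 for Bcl6 (186 and 179 FPM), Kit, Syde2, Adamtsl2, Dbh and Pam, and second to CD8aa for Fcer1g.

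The promoters of 6 genes are printed because the results below turn on them: the marker Fcer1g, the leading genes Kit and Adamtsl2, Gpr55, which set the label apart from Innate-like T#2, and Sox4 and Gzmk, which differed from CD8aa and Cytotoxic gdT in opposite directions. Each is 1 RefSeq start site (GRCm38.p6, the build of the files) with 250 bases before and 50 after it, read 5′ to 3′ along the gene. Capitals mark matches on either strand to TCF/LEF (CTTTGA), RUNX (TGTGGT), ETS (GGAAGT) and T-box (TCACAC) letters. Fcer1g lies at chr1:171234300-171234599 (minus), Kit at chr5:75574737-75575036 (plus), Adamtsl2 at chr2:27079129-27079428 (plus), Gpr55 at chr1:85961006-85961305 (minus), Sox4 at chr13:28953650-28953949 (minus) and Gzmk at chr13:113180916-113181215 (minus).
Fcer1g: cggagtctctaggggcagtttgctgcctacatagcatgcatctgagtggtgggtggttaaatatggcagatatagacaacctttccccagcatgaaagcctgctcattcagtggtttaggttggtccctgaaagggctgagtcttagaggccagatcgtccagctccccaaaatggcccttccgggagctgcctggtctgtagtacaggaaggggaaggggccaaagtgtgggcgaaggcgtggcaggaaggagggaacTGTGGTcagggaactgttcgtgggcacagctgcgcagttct
Kit: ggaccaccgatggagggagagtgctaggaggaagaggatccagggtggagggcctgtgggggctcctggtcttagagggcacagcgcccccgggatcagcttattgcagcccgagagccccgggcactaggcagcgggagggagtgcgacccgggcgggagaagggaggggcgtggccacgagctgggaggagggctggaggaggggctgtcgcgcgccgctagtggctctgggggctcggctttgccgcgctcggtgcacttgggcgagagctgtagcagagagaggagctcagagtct
Adamtsl2: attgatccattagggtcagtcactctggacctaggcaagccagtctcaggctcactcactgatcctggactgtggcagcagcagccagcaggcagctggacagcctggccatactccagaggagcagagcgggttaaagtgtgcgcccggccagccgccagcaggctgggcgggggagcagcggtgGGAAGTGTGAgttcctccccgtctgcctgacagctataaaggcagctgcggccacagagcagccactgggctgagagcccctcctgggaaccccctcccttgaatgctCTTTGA
Gpr55: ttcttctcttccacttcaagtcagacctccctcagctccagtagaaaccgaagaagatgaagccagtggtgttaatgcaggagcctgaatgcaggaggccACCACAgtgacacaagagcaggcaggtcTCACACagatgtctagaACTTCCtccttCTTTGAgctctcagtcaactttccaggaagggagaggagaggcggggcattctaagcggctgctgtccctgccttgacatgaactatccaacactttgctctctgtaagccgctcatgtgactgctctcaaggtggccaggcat
Sox4: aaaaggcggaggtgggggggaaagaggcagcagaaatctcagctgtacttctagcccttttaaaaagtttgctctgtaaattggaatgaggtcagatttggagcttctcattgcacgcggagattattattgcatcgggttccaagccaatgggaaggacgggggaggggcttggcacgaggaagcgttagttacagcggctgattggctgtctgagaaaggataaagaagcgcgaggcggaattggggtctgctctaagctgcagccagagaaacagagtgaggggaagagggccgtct
Gzmk: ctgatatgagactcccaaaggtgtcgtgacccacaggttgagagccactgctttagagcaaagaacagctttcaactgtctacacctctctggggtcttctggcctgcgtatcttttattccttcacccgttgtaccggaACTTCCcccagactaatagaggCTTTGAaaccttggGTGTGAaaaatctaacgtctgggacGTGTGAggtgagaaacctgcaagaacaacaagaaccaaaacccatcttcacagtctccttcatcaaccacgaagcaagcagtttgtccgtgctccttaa
Kit and Sox4 held none of these letters, Fcer1g held 1 RUNX match, and Gpr55 held 1 match of each of the 4. Gzmk held 2 T-box matches, and in Adamtsl2 the ETS and T-box matches overlap. Of all 21262 promoter windows of the table, 14.4% held the TCF/LEF letters, 15.0% RUNX, 24.8% ETS and 13.2% T-box, so a match is common and is a description only.

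The Kit promoter held 26.4 and 24.0 FPM in Innate-like T#1, against 17.9 and 12.6 FPM in Innate-like T#2 and 6.96 and 5.20 FPM in CD8aa. Sox4 encodes a high mobility group factor of progenitor lymphocytes. Its promoter held 15.9 and 15.4 FPM in Innate-like T#1 and 17.9 and 14.3 FPM in Innate-like T#2. The same window had no cecum fragment and 1.16 FPM of tumor fragments in CD8aa, and 0.332 and 0.954 FPM in Cytotoxic gdT. Gzmk, a granzyme of effector T cells, showed the reverse, with 0.124 and 0.16 FPM in Innate-like T#1 against 5.57 and 6.07 FPM in CD8aa and 3.99 and 8.11 FPM in Cytotoxic gdT. Gpr55, a lysophospholipid receptor, had 8.93 and 10.6 FPM at its promoter, against 2.83 and 3.98 FPM in Innate-like T#2. The Adamtsl2 promoter held 11.2 and 16.2 FPM in Innate-like T#1, 4.71 and 13.3 FPM in Innate-like T#2 and 4.64 and 3.18 FPM in CD8aa. The Fcer1g promoter held 3.72 and 4.48 FPM, against 6.599 and 2.98 FPM in Innate-like T#2, 5.11 and 4.05 FPM in CD8aa and 0 and 0.941 FPM in Rorgt gdT, and the intervals of the log2 ratios over Innate-like T#2 and CD8aa held 0.

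A set of 163 genes (1.36% of the 11989 tested) was more accessible in Innate-like T#1 than in every other ranked label in both libraries. A gene was tested when its mean over the 5 innate-type labels was at least 20 FPM in each library, so a gene could also enter through another label in which it was high. The same holds for the gene comparisons with single labels below. The intervals of the ratio to the next label lay above 0 in both libraries for 16 of the 163, and 4 genes passed a log2 ratio of 0.5 in both. In 26 of them Innate-like T#2 was the next label in both libraries. These counts describe a ranking among labels and carry no test.

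Adamtsl2, Kit and Syde2 were among the 4 genes past 0.5 over the next label. Kit, the receptor for stem cell factor, had 187 and 173 FPM, and the next label was Innate-like T#2 at 122 and 82.2 FPM. CD8aa had 52.4 and 71.7 FPM, Cytotoxic gdT 72.8 and 58.7 FPM, and Rorgt gdT 101 and 56.0 FPM. Its log2 ratio over Innate-like T#2 was 0.62 (0.36 to 0.89) and 1.06 (0.88 to 1.27). Adamtsl2, a secreted matrix protein, had 64.5 and 83.2 FPM against 35.8 and 45.1 FPM in Innate-like T#2, in a window shared with Fam163b. Dbh, the enzyme that makes noradrenaline, lies on the same chromosome next to it (chr2:27165507-27183204) and had 64.0 and 67.0 FPM against 38.6 and 52.1 FPM. Both of these genes fell away in steps through CD8aa (26.0 and 31.2 FPM for Adamtsl2) and Cytotoxic gdT (12.3 and 17.2 FPM) to Rorgt gdT (2.31 and 4.23 FPM). Syde2, a regulator of small GTPases, had 121 and 102 FPM in Innate-like T#1 and 81.1 and 67.0 FPM in Innate-like T#2 but 5.17 to 10.7 FPM in the other 3 labels. Within 1000 bases of its gene ends the cecum log2 ratio of Syde2 over Innate-like T#2 was -0.047. Lrmda, Pam, Prkd3, Pde10a and Antxr1 were also among the 10 leading genes, each with Innate-like T#1 first in both libraries and at 65.9 to 181 FPM.

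Across all tested genes, Innate-like T#2 was the label closest to Innate-like T#1. Pearson's r of log2(FPM + 1) across the 11989 genes was 0.95005 and 0.963, with Spearman's coefficient of 0.955 and 0.966. Next came Cytotoxic gdT in the cecum (0.928, with CD8aa at 0.925) and CD8aa in the tumor (0.937, with Cytotoxic gdT at 0.926). Rorgt gdT ranked 10 and 11 at 0.868 and 0.866. Genes are not independent replicates, the labels of a library share its preparation, and r grows with a label's depth. With every label thinned to 426832 fragments, r for Innate-like T#2 was 0.878 and 0.877 and it still ranked 1 in both libraries.

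Against Innate-like T#2, a gene was called when its log2 ratio, with 1 FPM added to both levels, was at least 0.5 in the same direction in both libraries. This called 124 genes higher (1.03% of those tested) and 164 lower (1.37%) in Innate-like T#1. The median over all tested genes was 0.04 and 0.03.

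**Figure D2:**
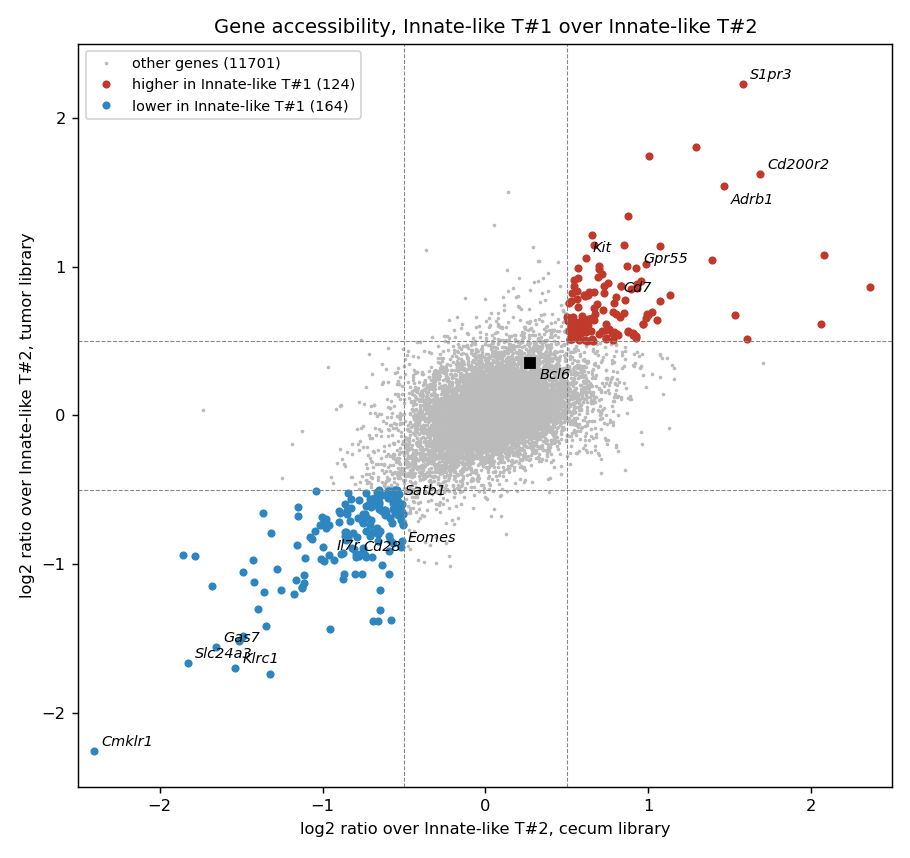
Log2 ratio of gene accessibility in Innate-like T#1 over Innate-like T#2 for the 11989 tested genes, cecum library on the horizontal and tumor library on the vertical axis. The 124 genes called higher (red) and 164 called lower (blue) lie outside the dashed lines at 0.5, with Cmklr1 farthest at the low end and Bcl6 (black square) inside the lines.

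Among the 10 genes ranked highest, Cd200r2, a member of the CD200 receptor family, had 32.6 and 32.7 FPM in Innate-like T#1 and 9.43 and 9.95 FPM in Innate-like T#2. Its log2 ratio was 1.69 (0.89 to 2.87) and 1.62 (1.18 to 2.30). S1pr3, a receptor for sphingosine 1-phosphate, had 41.5 and 51.9 FPM against 13.2 and 10.3 FPM, in a window that also reaches Shc3. Its log2 ratio was 1.58 (0.89 to 2.54) and 2.23 (1.82 to 2.91). Adrb1, a beta-adrenergic receptor, had 22.6 and 31.9 FPM against 7.54 and 10.3 FPM, and Gpr55 had 214 and 218 FPM against 112 and 109 FPM. For Gpr55 the counts were large (1723 and 2727 fragments) and the log2 ratio was 0.92 (0.66 to 1.21) and 0.99 (0.83 to 1.17). For Cd200r2, S1pr3 and Adrb1 Innate-like T#2 had the lowest level of the 5 innate-type labels in both libraries, and for Gpr55 Rorgt gdT did. CD8aa was above Innate-like T#1 for the first 3 of these genes, with 39.9 and 36.7 FPM for Cd200r2. The rest of the 10 were Myl1, P4ha2, Slco2b1, Dkk3, Cnih3 and Slc38a8, with the smaller of their 2 log2 ratios between 0.98 and 1.29.

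At the other end stood Cmklr1, the receptor for chemerin, at 5.95 and 12.6 FPM against 35.8 and 64.0 FPM in Innate-like T#2. The log2 ratio was -2.41 (-3.23 to -1.94) and -2.26 (-2.66 to -2.04), and CD8aa (44.1 and 54.0 FPM) and Cytotoxic gdT (40.2 and 37.2 FPM) were also far above Innate-like T#1. Slc24a3, a sodium, calcium and potassium exchanger, had 15.7 and 16.97 FPM against 58.4 and 56.0 FPM. Gas7 had 62.0 and 77.3 FPM against 197 and 230 FPM, with a log2 ratio of -1.65 (-1.90 to -1.43) and -1.56 (-1.72 to -1.43). Klrc1, which encodes the receptor NKG2A, had 14.6 and 12.6 FPM against 44.3 and 43.1 FPM. The other genes of the lowest 10 were Smox, Slc35f3, Il6ra, F2rl2, Meox1 and Atp8b4, of which Il6ra, the interleukin 6 receptor, had 24.5 and 32.8 FPM against 64.1 and 89.5 FPM.

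Genes of naive and circulating T cells lay below Innate-like T#2. Of the 8 genes in this list 6 were tested, and 0 were called higher and 4 lower. The median log2 ratio over all 8 was -0.72 and -0.87. Il7r, the receptor for the survival cytokine interleukin 7, had 22.3 and 25.9 FPM against 44.3 and 50.7 FPM. Klf2, a factor for quiescence and tissue exit, had 80.8 and 67.9 FPM against 137 and 129 FPM, and Cxcr5, a follicle homing receptor, had 62.5 and 64.9 FPM against 102 and 126 FPM. The Cxcr5 window also reaches Bcl9l. For Il7r, Klf2 and Cxcr5 the Innate-like T#1 level was below Innate-like T#2 in both libraries with intervals below 0.

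In the list of receptor, coreceptor and lineage genes 13 of 14 were tested, 4 were called lower and 1 higher, and Cd4 and Cd8a were not called. The 4 were Cd28, at 74.1 and 68.7 FPM against 129 and 134 FPM, Cd5, at 46.2 and 44.3 FPM against 83.9 and 79.3 FPM, and Cd2 and Cd6. All 4 are surface proteins that tune signals of the antigen receptor. Blk, a Src-family kinase of B cells and gamma-delta T cells, was the 1 called higher, with 23.6 and 33.5 FPM against 3.77 and 17.9 FPM. In the cecum the Blk level of Innate-like T#2 rested on 4 fragments. The list's median was -0.08 and -0.10.

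For the remaining lists the counts stand beside 1.03% of all tested genes called higher and 1.37% lower. Of the 11 progenitor and memory factors Satb1, a chromatin organizer (166 and 163 FPM against 241 and 243 FPM), and Myb were called lower, and Tcf7, Lef1, Id3, Bach2 and 5 others were not called. Within 1000 bases of RefSeq start sites the cecum log2 ratio of Myb was 0.0075. Of 13 tested effector and residency factors Eomes and Hopx were called lower. Of 11 tested cytotoxicity genes Gzmb and Ifng were called lower. Of 11 tested innate adaptors and natural killer receptors Cd7 was called higher (79.6 and 86.0 FPM against 45.2 and 49.1 FPM), and Klrk1 and Klrc1 lower. Of the 14 strong-signal and agonist-selection genes, such as Nr4a1, Pdcd1 and Tox, 0 were called in either direction. Pdcd1, which encodes PD-1, had 154 and 140 FPM against 196 and 190 FPM.

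**Figure D3:**
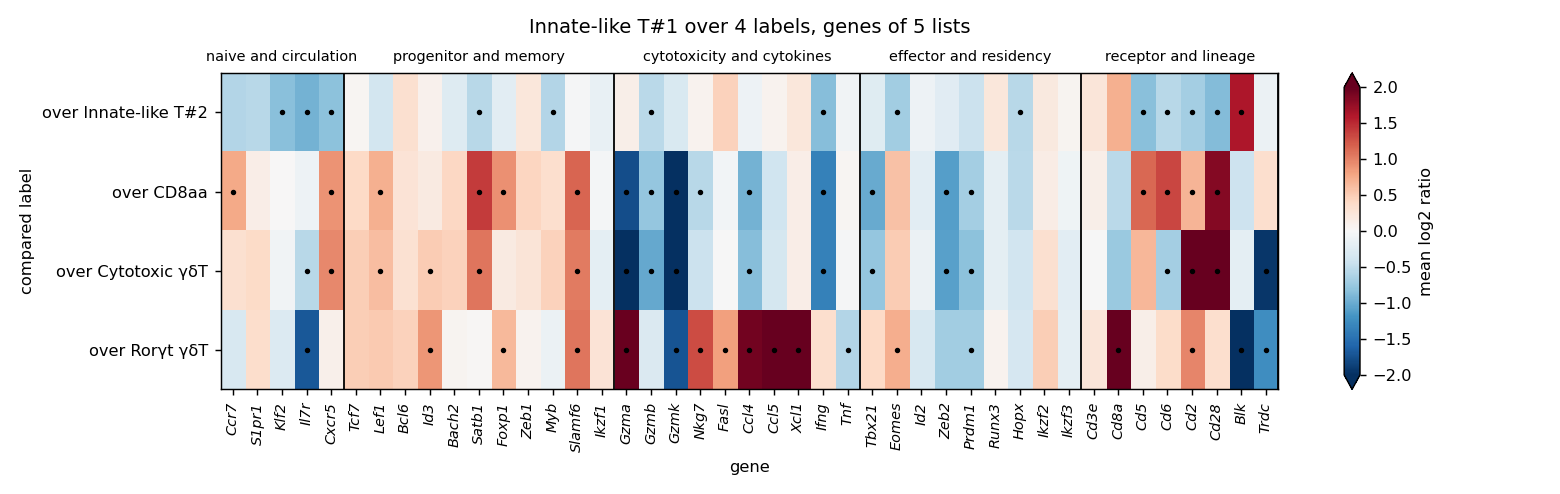
Mean over both libraries of the log2 ratio of Innate-like T#1 over each of 4 labels (rows) for genes drawn from 5 lists (columns), where a dot marks a gene called in both libraries and colours are limited at 2 in either direction. The 5 naive and circulation genes drawn are below 0 over Innate-like T#2, and Satb1, Slamf6 and Cd28 are above 0 while Gzma, Gzmk and Zeb2 are below 0 over CD8aa and Cytotoxic gdT.

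Distal sites also differed between Innate-like T#1 and Innate-like T#2. Tiles of 500 bases more than 5000 bases from any end of a protein-coding gene were compared when the mean of the 2 labels was at least 10 FPM in each library, and called at a log2 ratio of 1 in both libraries. Of 7085 tiles 76 were higher (1.07%) and 172 lower (2.43%) in Innate-like T#1. Of the higher tiles 61.8% lay inside the span of a gene, of the lower ones 56.4%, and of all tested 58.6%. The RefSeq table used gives gene spans without exons, so introns and exons were not separated.

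A tile inside the span of Snx29, a sorting nexin gene (chr16:11400001-11400500), had the largest contrast upward when ranked by the smaller of the 2 libraries' log2 ratios. It held 25.7 and 39.9 FPM in Innate-like T#1 and 3.77 and 3.32 FPM in Innate-like T#2, while CD8aa had 38.1 and 39.6 FPM and Cytotoxic gdT 37.9 and 46.3 FPM. A tile inside Gpr55 (chr1:85982001-85982500) held 24.2 and 24.5 FPM against 2.83 and 4.31 FPM, which adds a site to the difference at the Gpr55 promoter printed above. A tile 9651 bases from Nr4a1 (chr15:101244001-101244500) held 18.0 and 17.9 FPM against 4.71 and 2.65 FPM. Nr4a1 is an immediate early gene of antigen receptor signalling, and its whole gene window was not called. A tile 10229 bases from Xcl1, a chemokine for dendritic cells (chr1:164945501-164946000), held 29.9 and 33.4 FPM against 8.48 and 6.30 FPM, and one inside Xdh (chr17:73893001-73893500) 19.6 and 17.05 FPM against 5.66 and 4.31 FPM. In the cecum the Innate-like T#2 levels of these 5 tiles rested on 3 to 9 fragments.

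Downward, a tile inside Runx2 (chr17:44654501-44655000), a RUNX family factor, held 1.98 and 2.24 FPM in Innate-like T#1 against 30.2 and 25.2 FPM in Innate-like T#2. Rorgt gdT had 26.4 and 29.6 FPM there, and 3 of the 172 lower tiles lay in or nearest to Runx2. A tile inside Arid3a (chr10:79937001-79937500), a factor of early lymphocytes, held 4.34 and 5.28 FPM against 39.6 and 48.1 FPM, with 0.239 to 1.39 FPM in CD8aa and Cytotoxic gdT. A tile inside Ctif held 1.86 and 1.68 FPM against 20.7 and 30.5 FPM. At Arid3a and Ctif Innate-like T#2 stood above the other labels.

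The called tiles and genes were then read in the other 3 labels, a step added after the values had been seen. The tile call had not used these 3 labels. The gene minimum of 20 FPM was a mean over all 5 labels, so they had a part in which genes could be called. Over the 76 higher tiles the median level was 20.1 and 20.2 FPM in Innate-like T#1 and 6.599 and 7.30 FPM in Innate-like T#2, as the choice requires. CD8aa had 21.6 and 19.4 FPM and Cytotoxic gdT 21.9 and 18.8 FPM, and Rorgt gdT 5.55 and 4.70 FPM. Over the 172 lower tiles the median was 6.94 and 7.48 FPM in Innate-like T#1, 5.11 and 6.21 FPM in CD8aa, 4.65 and 5.01 FPM in Cytotoxic gdT and 11.6 and 13.4 FPM in Rorgt gdT. Over the 124 higher genes the median log2 ratio over CD8aa was 0.01 in both libraries, and over Cytotoxic gdT 0.02 and 0.07. Over the 164 lower genes it was 0.11 and 0.04 over CD8aa and 0.09 and 0.13 over Cytotoxic gdT. Since the sites and genes were chosen on the distance between Innate-like T#1 and Innate-like T#2, that distance is fixed by the choice, and these medians are a description.

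**Figure D4:**
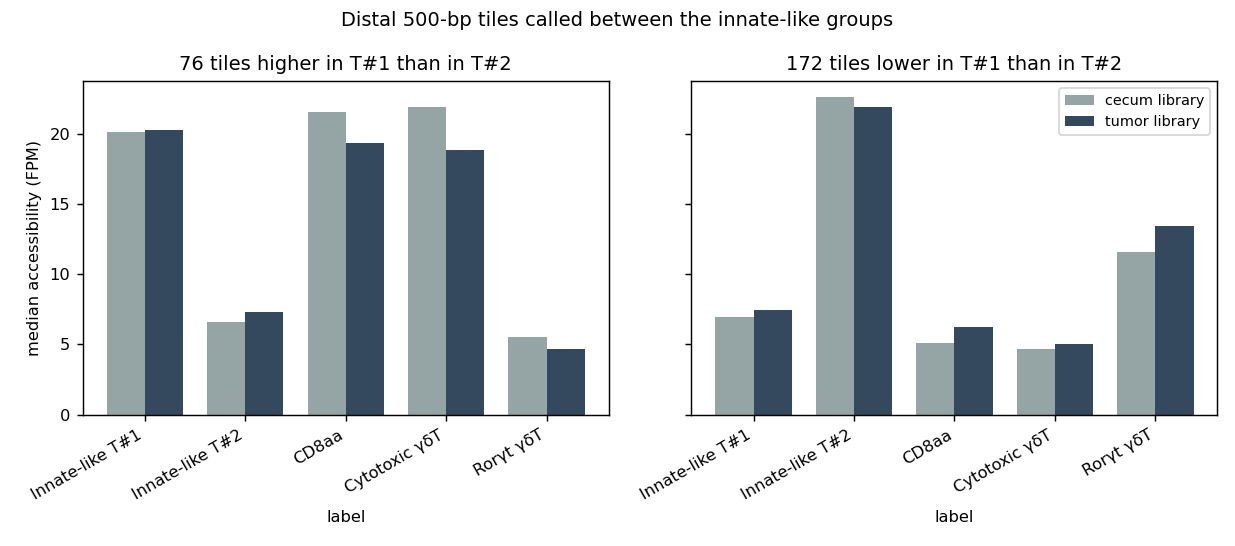
Median accessibility in FPM of the distal tiles called between Innate-like T#1 and Innate-like T#2, by label and library. Over the 76 higher tiles Innate-like T#1 has 20.1 and 20.2 FPM, CD8aa 21.6 and 19.4 FPM and Cytotoxic gdT 21.9 and 18.8 FPM, and Rorgt gdT has 5.55 and 4.70 FPM on the left and 11.6 and 13.4 FPM on the right.

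Distal tiles with at least 10 FPM in Innate-like T#1 in both libraries were ranked by their level over the next label, a ranking chosen after the values had been seen. Tiles entered it through the level of Innate-like T#1 itself, so the leading ones are a description. Of 7145 such tiles 401 were highest of all labels in both libraries. Only 3 had a log2 ratio of at least 1 over the next label in both. The first tile lay inside Carmil1 (chr13:24083501-24084000), with 24.4 and 20.2 FPM. The next label there was Innate-like T#2 in the cecum at 8.48 FPM (9 fragments) and CD8aa in the tumor at 6.36 FPM. Tiles inside Tacc2 (14.4 and 15.8 FPM), Pitpnm2 (14.3 and 11.7 FPM), Cc2d2b (12.4 and 10.2 FPM) and Antxr1 (17.7 and 19.5 FPM) followed. Antxr1, an anthrax toxin and collagen receptor, was also among the 10 leading genes above.

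Against CD8aa and Cytotoxic gdT more genes were called than against Innate-like T#2. Innate-like T#1 was higher than CD8aa in 425 genes (3.54%) and lower in 193 (1.61%), and higher than Cytotoxic gdT in 466 genes (3.89%) and lower in 245 (2.04%). These comparisons share the Innate-like T#1 cells, so their values are given side by side and not counted as separate evidence. Medians over all genes lay between -0.06 and -0.01.

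The genes highest over both labels included Syde2 and Abca1, a cholesterol exporter, which had 52.2 and 54.6 FPM in Innate-like T#1 against 6.50 and 7.23 FPM in CD8aa and 3.66 and 6.92 FPM in Cytotoxic gdT. Sox4 had 61.6 and 53.1 FPM over its whole window against 2.78 and 6.94 FPM in CD8aa, a log2 ratio of 4.05 (3.34 to 5.92) and 2.77 (2.35 to 3.59), and 5.32 and 7.39 FPM in Cytotoxic gdT. Innate-like T#2 had 48.1 and 42.1 FPM, so both innate-like groups were open there, as at the Sox4 promoter. Basp1 and Sfmbt2 completed the 5 highest over CD8aa. Mycn, Nhsl1 and Atp1b1 completed those over Cytotoxic gdT, with Mycn, a growth factor-induced regulator of the Myc family, at 19.1 and 24.3 FPM against 1.33 and 2.15 FPM.

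Among the lowest genes, Gzmk had 5.33 and 6.08 FPM over its window against 59.9 and 57.8 FPM in CD8aa and 74.8 and 78.7 FPM in Cytotoxic gdT. Klrg1, an inhibitory receptor of late effector cells, had 5.33 and 5.52 FPM against 59.9 and 60.4 FPM and 60.8 and 60.6 FPM. For both genes Innate-like T#2 was low as well, at 5.66 and 9.29 FPM for Gzmk and 12.3 and 10.6 FPM for Klrg1. Cacng8 and Zdhhc2 were among the 5 lowest against both labels, Cmklr1 against CD8aa and Adam19, a metalloprotease (53.9 and 61.8 FPM against 232 and 271 FPM), against Cytotoxic gdT.

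Of the 11 tested cytotoxicity and effector cytokine genes, 6 were called lower than in CD8aa (Gzma, Gzmb, Gzmk, Nkg7, Ccl4 and Ifng) and 5 lower than in Cytotoxic gdT (the same without Nkg7), with 0 called higher. Over all 13 genes of the list the median log2 ratios were -0.50 and -0.60 over CD8aa and -0.46 and -0.40 over Cytotoxic gdT. Gzma, a granzyme, had 25.8 and 27.1 FPM against 90.5 and 94.2 FPM in CD8aa and 106 and 109 FPM in Cytotoxic gdT. Ifng, the gene of interferon gamma, had 15.1 and 17.05 FPM against 43.6 and 41.9 FPM and 43.2 and 41.5 FPM. Of the 13 tested effector factors Tbx21, Zeb2 and Prdm1, which drive effector differentiation, were called lower against both labels. These calls rest on the whole gene windows, since within 1000 bases of the gene ends the tumor log2 ratio of Prdm1 over CD8aa was 0.12 and that of Tbx21 over Cytotoxic gdT 0.14. Zeb2 had 88.0 and 89.2 FPM against 203 and 181 FPM in CD8aa and 181 and 197 FPM in Cytotoxic gdT.

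Of the 11 progenitor and memory factors 4 were called higher than in CD8aa (Lef1, Satb1, Foxp1 and Slamf6) and 4 higher than in Cytotoxic gdT (Lef1, Id3, Satb1 and Slamf6), with 0 lower. Satb1 had 166 and 163 FPM against 52.4 and 72.0 FPM in CD8aa and 79.4 and 76.6 FPM in Cytotoxic gdT. Tcf7, which encodes TCF1, was not called, at 220 and 230 FPM against 174 and 167 FPM and 166 and 153 FPM. Of the 6 tested naive and circulation genes 3 were called higher than in CD8aa, Ccr7 and Cxcr5 among them, with 0 lower, and against Cytotoxic gdT 2 were higher and Il7r lower. Cd28 stood at 74.1 and 68.7 FPM against 18.6 and 19.9 FPM in CD8aa and 11.0 and 12.9 FPM in Cytotoxic gdT. Pdcd1 was called higher against both, with 61.3 and 76.3 FPM in CD8aa and 64.5 and 79.9 FPM in Cytotoxic gdT.

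Distal tiles against these labels, a comparison added after the values had been seen, gave 104 higher (1.49% of 6970) and 126 lower (1.81%) for CD8aa and 151 higher (2.2% of 6867) and 165 lower (2.4%) for Cytotoxic gdT. Ranked by the smaller of the 2 libraries' log2 ratios, the leading upward tile against both lay far from genes, 266156 bases from Prl5a1 (chr13:28417501-28418000). It held 31.0 and 30.2 FPM in Innate-like T#1, 19.8 and 13.6 FPM in Innate-like T#2, 0.928 and 1.16 FPM in CD8aa and 0.665 and 0.954 FPM in Cytotoxic gdT. A tile inside Znrf3, a brake on Wnt receptors (chr11:5411501-5412000), held 22.3 and 20.9 FPM against 0.928 and 0.867 FPM in CD8aa. The 2 tiles that were lowest against both labels by the same rule lay inside Ly75 (chr2:60328501-60329000) and 36423 bases from Prdm1 (chr10:44400501-44401000). The Ly75 tile had 5 fragments in the cecum (0.62 FPM) and 0.32 FPM in the tumor, against 23.7 and 21.7 FPM in CD8aa and 31.2 and 25.3 FPM in Cytotoxic gdT. The Prdm1 tile had 0.372 and 0.88 FPM against 30.2 and 26.0 FPM and 31.2 and 25.0 FPM. Innate-like T#2 was at 0 to 1.89 FPM at both of these tiles.

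Rorgt gdT was the least like Innate-like T#1 of the 4 labels compared, with 824 genes higher (6.87%) and 519 lower (4.33%) in Innate-like T#1. Syde2 (5.55 and 5.17 FPM in Rorgt gdT), Adamtsl2, Dbh, Bend4 and Atp1b1 were highest, a set chosen after the values had been seen. Cd8a had 32.5 and 45.6 FPM against 4.62 and 8.94 FPM, and Fcer1g had a log2 ratio of 2.17 (1.58 to 3.18) and 1.69 (1.18 to 2.45). Of 11 tested cytotoxicity genes 7 were called higher (Gzma, Prf1, Nkg7, Fasl, Ccl4, Ccl5 and Xcl1) and 2 lower (Gzmk and Tnf), and Gzmb and Ifng were not called. Ccl5, a chemokine stored by cytotoxic cells, had 97.8 and 97.3 FPM against 19.9 and 28.7 FPM. Of the 11 innate adaptors 6 were called higher (Fcer1g, Cd244a, Klrd1, Klre1, Cd160 and Cd7), where Klrd1 and Klre1 share part of their windows, and Klrc1 was called lower.

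Of the 7 genes in the type 17 list 4 were tested. All 4, Rora, Il23r and Maf among them, were called lower than in Rorgt gdT. The median log2 ratios over all 7 genes of the list were -2.69 and -2.34. Against Innate-like T#2 0 were called, and against CD8aa and Cytotoxic gdT Maf was called higher and Rora lower. Il23r, the interleukin 23 receptor, had 31.0 and 35.5 FPM against 206 and 184 FPM. Il1r1, the interleukin 1 receptor, had 14.8 and 19.3 FPM against 279 and 275 FPM, and Blk 23.6 and 33.5 FPM against 246 and 274 FPM. The 5 lowest genes were Kcnk1, Lrrn2, Krt28, Abi3bp and Ppp1r14c, each at 0.744 to 6.08 FPM in Innate-like T#1 against 95.5 to 126 FPM. These genes could pass the tested minimum mainly through Rorgt gdT itself, as could other lower genes, so their place is a description. Of 6597 distal tiles 411 were higher (6.23%) and 527 lower (7.99%). The leading higher tile lay inside Syde2 (chr3:146004501-146005000) with 60.9 and 50.3 FPM against 2.31 and 1.41 FPM, and Innate-like T#2 had 35.8 and 31.5 FPM there.

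The T cell receptor alpha and delta genes share 1 locus, in which the delta constant gene Trdc lies between the variable and the joining genes of alpha and is cut out when an allele rearranges alpha. Trdc accessibility therefore served as a check of the gamma-delta labels. The Trdc span with 1000 bases on both sides (chr14:54141851-54147108) held 7.07 FPM (5.35 to 9.15) and 7.84 FPM (6.37 to 9.56) in Innate-like T#1. Cytotoxic gdT had 40.9 and 28.4 FPM and Rorgt gdT 20.4 and 15.5 FPM, with intervals in this window that did not overlap those of Innate-like T#1. Within the Trdc span alone Innate-like T#1 had 1.49 FPM (0.769 to 2.60) and 1.60 FPM (0.978 to 2.47), and Rorgt gdT 4.625 FPM (2.22 to 8.51) and 5.65 FPM (2.92 to 9.86), which overlapped in the cecum. From Trdd2 to Trdj2, diversity and joining genes of delta, Innate-like T#1 had 7.19 FPM (5.46 to 9.29) and 4.00 FPM (2.97 to 5.28) and Rorgt gdT 6.47 and 5.65 FPM, which overlapped in both libraries, and Cytotoxic gdT had 17.3 and 16.9 FPM. Thus the separation from Rorgt gdT depended on the window, while the Cytotoxic gdT intervals lay above those of Innate-like T#1 in all 3 windows. In the first window Innate-like T#2 (7.54 and 5.97 FPM) and CD8aa (9.28 and 5.49 FPM) overlapped Innate-like T#1. Mucosal Th1 cells had 0.948 FPM (cecum) and no tumor fragment, and the regulatory T cell labels 0.525 to 1.33 FPM, with intervals below that of Innate-like T#1. CCR7+ CD8 cells, also an alpha-beta label, had 5.51 FPM (2.22 to 11.4) and 6.76 FPM (2.48 to 14.7), which overlapped it, as did CCR7+ CD4 cells at 1.68 and 4.11 FPM.

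The joining genes of alpha, from Traj61 to Traj31, held 49.5 and 44.4 FPM in Innate-like T#1 against 97.4 and 106 FPM in Cytotoxic gdT. Rorgt gdT had 33.3 FPM (26.1 to 41.9) there in the cecum, below Innate-like T#1 (44.7 to 54.6). In the tumor it had 48.5 FPM (39.6 to 58.8), which overlapped Innate-like T#1 (40.8 to 48.3). The stretch from Traj31 to Traj1 held 79.2 and 70.6 FPM against 61.2 and 70.1 FPM in Cytotoxic gdT and 24.1 and 32.5 FPM in Rorgt gdT. The alpha constant gene Trac held 127 and 123 FPM, in the range of the other 4 labels (108 to 149 FPM). Over this locus Innate-like T#1 and Innate-like T#2 had overlapping intervals in every window in the cecum. In the tumor Trac was lower in Innate-like T#1, at 123 FPM (117 to 130) against 148 FPM (134 to 162).

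**Figure D5:**
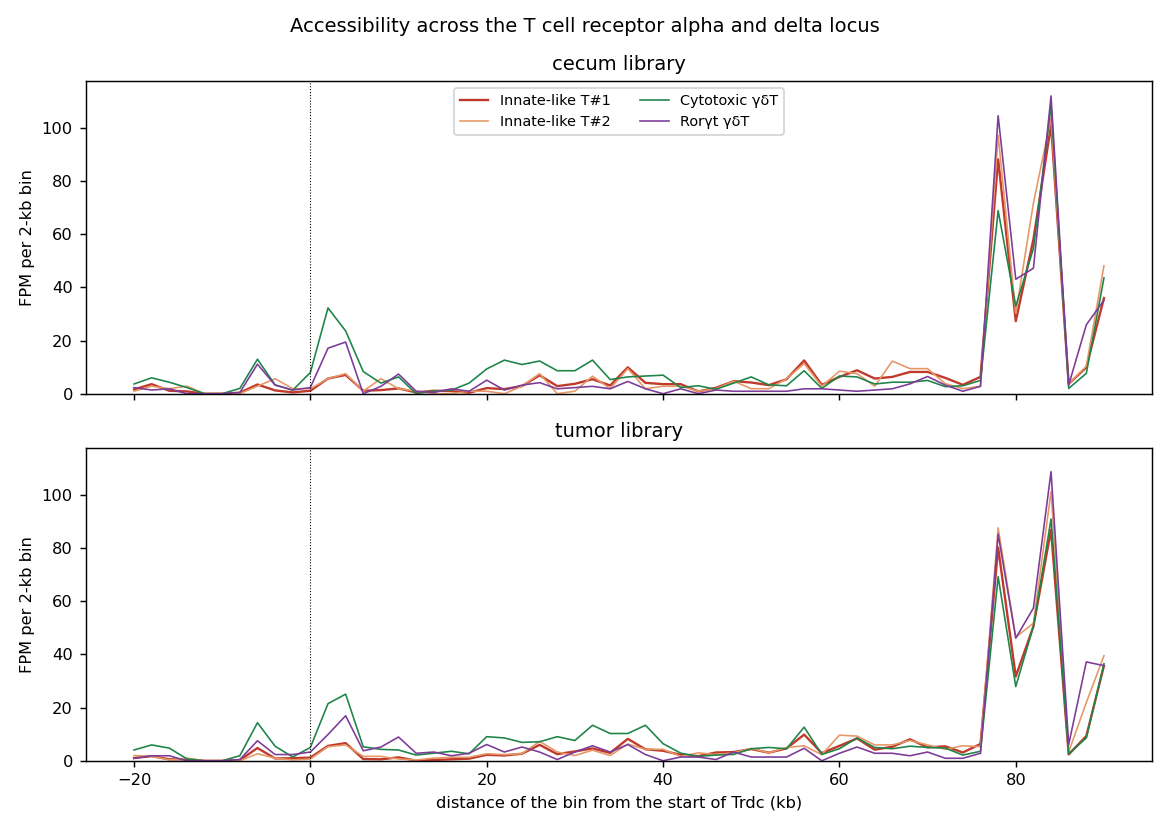
Accessibility per 2-kb bin across the T cell receptor alpha and delta locus against the distance from the start of Trdc (dotted line), for 4 labels in the cecum (above) and tumor (below) library. At Trdc the Innate-like T#1 line runs with Innate-like T#2 near the base while both gamma-delta labels rise, and all 4 lines rise together at Trac on the right.

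Markers of other cell types were summed for each label. The 10 epithelial genes had 224 and 233 FPM in Innate-like T#1, the highest of the labels in both libraries (medians of 154 and 158 FPM). Cdh1, which encodes E-cadherin, gave 135 and 139 FPM of this, close to Cytotoxic gdT with 135 and 132 FPM. Epcam also ranked 1 in both libraries, at 29.6 and 29.6 FPM against 12.9 to 19.9 FPM in the 4 compared labels. Krt8 (4.21 and 4.56 FPM, ranks 4 and 6) and Krt20 (1.24 and 0.88 FPM, ranks 7 and 9), which encode epithelial keratins, were low in the 4 compared labels too, at 2.66 to 6.12 FPM and 0 to 4.23 FPM. The 6 natural killer and ILC genes, of which Kit is 1, summed to 369 and 355 FPM, ranks 2 and 1, of which Kit alone gave 187 and 173 FPM. Against Innate-like T#2, Kit was called higher and Eomes and Il1rl1 lower among the 4 tested genes of this list. The median log2 ratio over all 6 genes was -0.30 and -0.57. The B cell list ranked 3 in both libraries at 198 and 194 FPM, and the myeloid list 9 and 4 at 127 and 142 FPM, with Lyz2 at 0.868 and 0.64 FPM. The part of such cells in the results above was not tested.

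Within Innate-like T#1 the 2 libraries were close. With a log2 ratio of at least 0.5 and an interval that excluded 0, 27 genes were higher in the tumor library (0.225% of 11989) and 1 was lower (0.00834%). Here too a gene could enter through another label, and some of the 27 were low in Innate-like T#1. Kcnk1, for example, had 6 cecum and 28 tumor fragments (0.744 and 2.24 FPM). The median of all genes was -0.02, and 94.99% of genes lay within 0.25 of 0. By size alone 28 genes passed 0.5 in either direction, against 130 in Cytotoxic gdT, 261 in CD8aa, 628 in Innate-like T#2 and 745 in Rorgt gdT, labels with fewer fragments. Without the deepest cells (187 and 116 with over 3 times the median depth) the counts were 60 higher and 5 lower genes.

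Crmp1, a cytoskeletal phosphoprotein gene in a window shared with Evc, had 3.84 and 11.6 FPM, a log2 ratio of 1.38 (1.03 to 2.20). Cmklr1, low against Innate-like T#2 in both libraries, went from 5.95 to 12.6 FPM, a log2 ratio of 0.96 (0.60 to 1.58). Dscam (19.96 and 36.5 FPM), Rhobtb1 (6.82 and 13.7 FPM) and Ptprn2 (23.6 and 40.7 FPM) completed the 5 highest, ranked by the lower bound of the interval. Il2, the gene of interleukin 2, was also among the 27, at 19.5 and 28.8 FPM, and is named here after its value was seen. In all other labelled cells pooled 20 of the 27 ratios were above 0 and 6 were at least 0.5, where 55 of the 11989 tested genes passed 0.5 upward. The share of all tested genes above 0 in these cells is not given here, so the count of 20 is a description only. For the 5 highest the pooled log2 ratios were 0.19 (Crmp1), 0.55 (Dscam), 0.51 (Cmklr1), -0.21 (Rhobtb1) and 0.32 (Ptprn2). Ryr3, a calcium release channel, was the 1 lower gene, at 41.0 and 24.3 FPM (-0.74, -0.99 to -0.53), where the other cells had a log2 ratio of 0.17.

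No gene of the fixed lists was called between the libraries. Bcl6 had a log2 ratio of tumor over cecum of -0.06 (-0.15 to 0.04), Fcer1g 0.09 (-0.12 to 0.32) and Kit -0.11 (-0.21 to -0.02). List medians, taken over all genes of a list whether tested or not, lay between -0.08 and 0.13, the latter for the 7 type 17 genes. The cytotoxicity list had a median of 0.07.

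Single cells were compared at 2000 fragments each, which left 909 of 1398 cecum and 1416 of 1841 tumor cells. A fragment at Bcl6 was present in 30.1% (27.2 to 33.2) and 28.1% (25.8 to 30.5) of these cells, and in 47.1% and 52.7% of all cells before thinning. Innate-like T#2 had 18.9% (12.3 to 26.9) and 27.6% (23.0 to 32.6) and CD8aa 25.6% (20.4 to 31.2) and 26.0% (21.7 to 30.7), so of these only the cecum interval of Innate-like T#2 lay below that of Innate-like T#1. At Kit it was present in 28.9% (26.0 to 32.0) and 27.5% (25.2 to 29.9), against 6.02% (3.48 to 9.58) and 10.3% (7.47 to 13.8) in CD8aa. Innate-like T#2 had 23.8% (16.5 to 32.3) and 12.7% (9.40 to 16.6), so its interval overlapped that of Innate-like T#1 in the cecum. At 1000 fragments per cell the cecum order of these labels turned, with Kit in 14.6% of Innate-like T#1 and 16.7% of Innate-like T#2 cells. At Fcer1g it was present in 6.05% (4.59 to 7.80) and 6.07% (4.89 to 7.45), against 7.89% and 5.93% in CD8aa, 7.38% and 5.63% in Innate-like T#2 and 7.28% and 5.03% in Cytotoxic gdT, all with overlapping intervals. Rorgt gdT had 2.29% (0.925 to 4.66) and 2.16% (0.706 to 4.98), and these intervals also overlapped those of Innate-like T#1, by a narrow margin. The 11 progenitor and memory factors together gave a mean of 5.57 and 5.50 fragments per cell, with a variance over the mean of 1.22 and 1.16 and a 5th to 95th percentile range of 2 to 10. The naive and circulation genes gave 0.664 and 0.653 fragments per cell, against 1.11 and 1.27 in Innate-like T#2 and 0.526 and 0.397 in CD8aa. A variance over the mean of 1 is what counting alone would give. The values for these lists were 0.989 to 1.22, with the progenitor and memory list above 1 in both libraries. They carry no interval, and their distance from 1 was not tested.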

How the data were processed

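The files were deposited by the authors as ATAC fragment lists of 1 cecum and 1 tumor library with a table of cell labels. Per the labels and the file headers, reads were processed with Cell Ranger ARC 2.0.0 against mm10, and the deposited fragment records carry read counts as whole numbers. Cell labels are the authors' annotation from RNA, and RNA counts were not analysed here. Doublets were not called.

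Fragments of labelled barcodes were counted once per window when an end lay in it, with python 3.11.15, numpy 2.4.6, pandas 2.3.3, scipy 1.17.1 and numba 0.67.0, and drawn with matplotlib 3.10.9. Gene windows were RefSeq spans with 5000 bases on both sides, and 11989 of 21884 genes passed the minimum of 20 FPM. Log2 ratios used 1 FPM added to both levels. Their intervals were taken from the fragment counts without this addition, so at low levels a ratio can lie near or past an end of its interval. Intervals are exact 95% intervals (conditional for ratios, Clopper-Pearson for shares, Poisson for levels) and cover counting error only. With 1 library per tissue no test was run. The counting scripts were tested on simulated data. Named genes were the 10 highest of all labels, the 10 highest and lowest over Innate-like T#2, the 5 highest and lowest over CD8aa, Cytotoxic gdT and (added after the values were seen) Rorgt gdT and between libraries, the 5 highest and 3 lowest distal tiles, and members of the lists. The cells, lists and comparisons were chosen with earlier results of these data known. Some genes that met these rules are not reported here. Alternatives changed the window, minimum, pseudocount, fold, scaling and cells used.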

Additional observations from a re-analysis of the deposited data

Results flagged for a closer look

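A total of 3 genes had ratios of opposite direction in the cecum and tumor libraries, each beyond a log2 ratio of 0.5 with an interval on 1 side of 0. With 1 library per tissue the difference was not tested. Tmem144 over Innate-like T#2 had a cecum log2 ratio of -0.77 (-1.26 to -0.29) against 0.51 (0.13 to 0.95) for the tumor library. Ryr3 over Cytotoxic gdT had 0.85 (0.50 to 1.28) and -0.80 (-1.10 to -0.55). Tmem171 over Rorgt gdT had 0.74 (0.06 to 1.64) and -0.51 (-0.97 to -0.08).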

How the results depend on the processing

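Counts of called genes depended on the window and thresholds. Counts are given as higher and lower over Innate-like T#2, CD8aa, Cytotoxic gdT and Rorgt gdT, and then in tumor over cecum. Within 1000 bases of gene ends they were 30 and 45, 67 and 40, 93 and 37, 203 and 130, and 6 and 0. Within 1000 bases of RefSeq start sites, an alternative chosen after seeing the data, they were 21 and 42, 53 and 26, 77 and 28, 169 and 102, and 3 and 0. With no gene minimum they were 597 and 449, 1389 and 488, 1208 and 694, 1635 and 1504, and 459 and 137. With a minimum of 50 FPM they were 49 and 72, 133 and 84, 168 and 135, 394 and 299, and 4 and 0. At a log2 ratio of 1 they were 8 and 21, 157 and 46, 159 and 52, 219 and 189, and 1 and 0. Between the tissues a pseudocount of 5 FPM left 13 higher, scaling by fragments near gene ends gave 49 higher, and leaving out cells above 3 times the median gave 60 higher and 5 lower. Distal tiles over Innate-like T#2 numbered 3 and 22 at a minimum of 20 FPM, 37 and 92 over 20000 bases from gene ends, and 26 and 86 with a pseudocount of 5 FPM. The share in the cecum was 18.6% among cells with at least 1000 fragments, and 25.3% and 30.5% of the labels without a CD4 or Treg name, and 34.2% and 34.1% of those without a CD4, Treg, Th or Tfh name, a denominator chosen after seeing the data. The Trdc span alone held 1.49 and 1.60 FPM. At 1000 fragments per cell Kit was found in 14.6% and 15.3% of cells, against 16.7% and 5.85% in Innate-like T#2, and Bcl6 was found in 15.7% and 15.2% of cells and Fcer1g in 2.95% and 4.07%. With labels thinned to equal depth, CD8aa ranked 2 in the cecum, Cytotoxic gdT 3 and 4, and Rorgt gdT 11 and 14.

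Of 1364 values for 244 single-gene results, 1098 moved less than their error, 259 moved more and 7 reversed. The window mattered most. Within 1000 bases of gene ends 108 values moved more, 4 reversed and 111 stayed. At start sites 78 moved more, 3 reversed and 84 stayed. With a pseudocount of 5 FPM 64 moved more and 180 stayed. Within 1000 bases of gene ends, log2 ratios reversed for Syde2 (-0.047) and Gpr15 (0.15) over Innate-like T#2 in the cecum, and in the tumor for Prdm1 over CD8aa (0.12) and Tbx21 over Cytotoxic gdT (0.14). At start sites, Myb over Innate-like T#2 in the cecum (0.0075), Tbx21 over CD8aa in the tumor (0.0071) and Tbx21 over Cytotoxic gdT in the tumor (0.19) reversed. The cause was not tested. No paired analysis was possible because each tissue has 1 library. Depth limits the ratios over Innate-like T#2 most in the cecum and those over Rorgt gdT most in the tumor, where each had the fewest fragments of the 5 labels.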

Other observations

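Over all tested genes 1.03% were called higher and 1.37% lower in Innate-like T#1 than in Innate-like T#2. Of 13 cytokine receptors Il18rap and Il10ra were called lower and 0 higher, and of 8 tested costimulatory and TNF family genes, 4 tested type 17 genes and 3 tested Treg, Th2 and Tfh genes 0 were called. Of 11 tested residency and homing genes Gpr55 was called higher and Gpr15 lower, though within 1000 bases of gene ends the cecum log2 ratio of Gpr15 was 0.15.

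Over all tested genes 3.54% were called higher and 1.61% lower than in CD8aa, 3.89% and 2.04% than in Cytotoxic gdT, and 6.87% and 4.33% than in Rorgt gdT. Against CD8aa, Il1r1 was called higher and Tgfbr3 lower among the cytokine receptors, Tnfrsf9 was lower among the costimulatory genes, Maf was higher and Rora lower among the type 17 genes, and Il10 was lower. Of the 11 tested innate adaptors Klrk1, Klrc1 and Klre1 were lower. Of the 14 strong-signal genes Pdcd1 was higher and Havcr2 and Irf4 lower. Against Cytotoxic gdT, Ccr9 was lower among the homing genes, Ctla4 and Cd226 among the costimulatory genes, and Il10ra and Tgfbr3 among the cytokine receptors. Of the receptor and lineage genes Cd2 and Cd28 were higher and Cd6 and Trdc lower there. Against Rorgt gdT, Il12rb2, Il21r and Tgfbr2 were higher and Il2ra, Il18rap and Il1r1 lower.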
